A study of Rattus norvegicus with 56 samples.

Results

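The hippocampus was examined 2 w after traumatic brain injury (TBI) in 8 small RNA libraries, 4 from TBI rats and 4 from sham-injured controls. They were chosen by 2 labels, a post-surgery time of 2 weeks and a treatment of TBI or sham surgery, and make up 8 of the 56 libraries of a series that follows fluid percussion injury over 7 post-injury intervals. In this model a fluid pulse strikes the exposed dura, and sham rats undergo the surgery without the pulse. The sources used here give no strain or age for these rats, and the samples are bulk hippocampal tissue, so fewer cells of a type and less RNA per cell cannot be told apart. TBI 1 to TBI 4 and Sham 1 to Sham 4 name the rats below. The names of the libraries carry consecutive tube numbers, 17 to 20 in the sham rats and 21 to 24 in the TBI rats, so an effect of tube order and the injury cannot be told apart.

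MicroRNAs (miRNAs) are short RNAs that guide a silencing complex to messenger RNAs, mainly through pairing of the seed, bases 2 to 8 of the mature strand. Several are known for their place in inflammation: miR-155 and miR-21 are induced in activated glia and macrophages, miR-146a dampens signalling to NF-kB, and miR-142 is made mainly in leukocytes and microglia. The hippocampus serves memory and is among the regions most readily harmed by TBI, and glial activation there outlasts the acute phase.

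The mature sequences of the miRNAs that the results turn on are printed so that their seeds can be compared, with the seed in capitals. They are RefSeq sequences for the GRCr8 assembly, which held 331 of the 367 miRNAs in the count table and 206 of the 227 that were tested. The first 5 were higher after TBI and the next 3 lower in at least 1 of 4 tests.
miR-146a-5p: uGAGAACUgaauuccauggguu
miR-142-5p: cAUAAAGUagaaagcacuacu
miR-190b-5p: uGAUAUGUuugauauuagguu
miR-155-5p: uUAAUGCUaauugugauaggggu
miR-21-5p: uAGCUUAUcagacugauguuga
miR-183-5p: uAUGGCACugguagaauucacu
miR-96-5p: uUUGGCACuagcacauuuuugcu
miR-182: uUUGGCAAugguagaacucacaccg
These 8 miRNAs have 8 different seeds. The seeds of miR-183-5p, miR-96-5p and miR-182, which lie together in the genome, all hold the run UGGCA. Partners that share a seed with a member of this set, or with each other, follow.
miR-146b-5p: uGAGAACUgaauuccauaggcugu
miR-190a-5p: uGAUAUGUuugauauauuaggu
miR-17-5p: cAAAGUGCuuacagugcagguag
miR-20a-5p: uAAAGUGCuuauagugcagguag

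The libraries held 3093633 to 9058160 counts each, and no difference in mean depth between TBI and sham was detected (two-sided exact permutation test over 35 divisions of the rats, p = 0.886). Between 269 and 290 miRNAs had a count in each library, and 227 passed the filter on low counts. Levels are given as CPM, counts scaled to library size by TMM, and 3 counts correspond to 0.327 to 0.992 CPM depending on the library. These floors cover counting error only. miR-9a-5p, a miRNA of neurons and their precursors, was the most abundant in every library at 19.2% to 23.5% of counts. The correlation of log2 CPM across miRNAs was 0.987 to 0.995 between a TBI and a sham library, against 0.990 to 0.996 within sham and 0.993 to 0.997 within TBI. In a principal component analysis of all tested miRNAs, component 1 held 33.3% of the variance and component 2 17.3%, and the TBI and sham rats overlapped on both.

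At 2 w after TBI a small set of miRNAs stood apart from sham while most of the profile did not. miR-146a-5p, miR-142-5p, miR-190b-5p, miR-155-5p and miR-21-5p were higher, by 0.49 to 1.36 on the log2 scale, and in each the lowest TBI rat exceeded the highest sham rat when CPM was scaled over these 8 libraries. For miR-146a-5p, miR-142-5p and miR-190b-5p this held under all 4 scalings tried, whereas miR-155-5p overlapped by total count alone and miR-21-5p overlapped under each of the 3 other scalings. miR-183-5p, miR-96-5p and miR-182, products of a cluster known from sensory neurons, were lower by a wide margin that rested largely on Sham 3 and Sham 1. Of the 227 miRNAs, 210 (92.5%) had a log2 fold change of less than 0.5 in size, 114 lay above 0 and 113 below, and the median was 0.0015. TMM scaling tends to centre these values, so the even split and the median near 0 are no separate result. By total count alone the median was also near 0, at 0.012. CPM cannot show a shift shared by all miRNAs.

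The number called depended on the test. By the quasi-likelihood (QL) test of edgeR, adjusted over all tested miRNAs by the Benjamini-Hochberg method, 0 of 227 miRNAs (0.0%) had an adjusted p under 0.05, and 21 (9.25%) had an unadjusted p under 0.05, 14 higher and 7 lower after TBI. The likelihood ratio test of edgeR called 8 (3.52%), the Wald test of DESeq2 called 7 (3.08%) and its likelihood ratio test called 6 (2.64%). All 3 tests called the same 6, miR-146a-5p, miR-155-5p, miR-142-5p, miR-190b-5p, miR-183-5p and miR-21-5p. miR-96-5p was added by the first 2 of these tests and miR-182 by the likelihood ratio test of edgeR alone. Without reference to a count model, 10 miRNAs (4.41%) had every TBI rat above every sham rat and 5 (2.2%) had every TBI rat below, the only 15 that reached p = 0.0286, the smallest p that an exact permutation test of 4 rats against 4 allows. Scaled by the size factors of DESeq2 or by TMM over 56 libraries, 12 of these 15 still did not overlap, and by total count alone 9 did not. Other miRNAs ceased to overlap by total count alone, among them miR-96-5p (TBI below) and miR-27a-5p (TBI above), for 7 above and 12 below in all.

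Which miRNAs were called when 1 rat was left out was counted over 8 fits of each of 2 tests. miR-146a-5p, miR-142-5p and miR-190b-5p were called in 8 of 8 fits by the likelihood ratio test of edgeR and in 8 of 8 by the Wald test of DESeq2. miR-155-5p was called in 8 and 7 of these fits, and lost in the Wald test without TBI 4. miR-21-5p was called in 4 and 3 fits, miR-183-5p in 8 and 3, miR-96-5p in 5 and 2, and miR-182 in 2 and 1. Without Sham 3, miR-182 was called by neither test and miR-96-5p by the first alone. The Wald test called none of the 3 sensory miRNAs without Sham 1, and none without any 1 of the TBI rats.

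**Figure D1:**
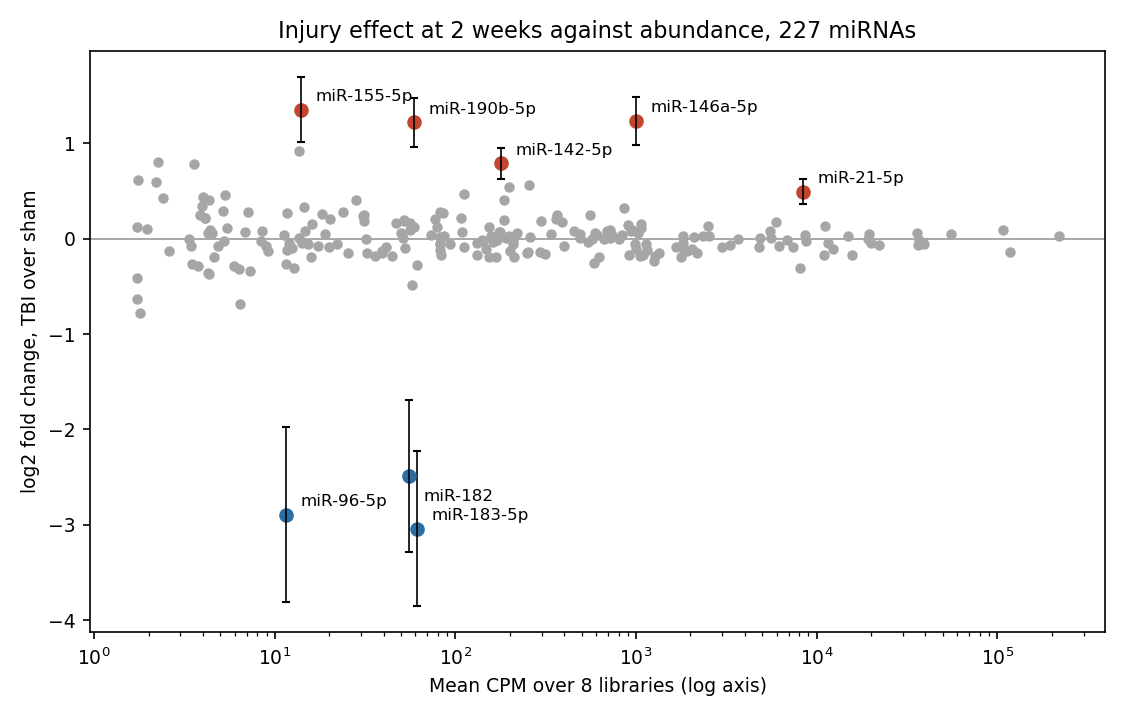
log2 fold change of TBI over sham at 2 w (vertical axis) against mean CPM (horizontal axis, log scale) for the 227 tested miRNAs; coloured points with standard error bars are the 8 miRNAs called in at least 1 of 4 tests. Most of the 227 lie within 0.5 of 0, the 5 red points lie at 0.49 to 1.36 from the rare miR-155-5p to the abundant miR-21-5p, and the 3 blue points of the sensory cluster lie below -2.

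miR-146a-5p, which represses the adaptors TRAF6 and IRAK1 upstream of NF-kB, had the smallest quasi-likelihood p. Its level was 691, 664, 552 and 462 CPM in Sham 1 to Sham 4 and 1140, 1990, 839 and 1614 CPM in TBI 1 to TBI 4. The groups did not overlap, and the TBI rats spread further than the sham rats, with a mean of 1396 CPM against 592. The log2 fold change was 1.24 (SE 0.25), and edgeR gave an adjusted p of 0.0676 by QL and 2.97e-04 by likelihood ratio. SE is the standard error throughout. miR-146b-5p has the same seed and differs from miR-146a-5p by 2 substitutions over the bases they share in length. It was several times as abundant and did not follow: 4711, 4639, 5080 and 5336 CPM in the sham rats and 4328, 3972, 5275 and 5053 CPM in the TBI rats. Its log2 fold change was -0.09 (SE 0.10), and its rats overlapped between groups. How reads that fit both were divided is not given in the sources used here.

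miR-142-5p, the leukocyte and microglia miRNA, was at 117, 139, 135 and 135 CPM in the sham rats. In the TBI rats it was at 204, 275, 165 and 252 CPM. The sham rats were close together and every TBI rat was above them, and the log2 fold change was 0.79 (SE 0.16, edgeR QL adjusted p = 0.0676). miR-150-5p, a miRNA of mature lymphocytes, was at 821 to 998 CPM in sham rats and 808 to 1096 CPM in TBI rats (log2 fold change 0.09, SE 0.11). miR-223-5p, of neutrophils and monocytes, had 1 to 10 counts in the sham libraries and 3 to 6 in the TBI libraries. It was below the filter and was not tested at 2 w alone, and a small difference could not be seen at such counts. Scaled over all 56 libraries, it was at 0.26 to 1.48 CPM in sham rats and 0.49 to 1.36 CPM in TBI rats at 2 w. Its TBI rats reached 8.17 CPM at 24 h. Of these 3 leukocyte and microglia miRNAs, 1 of the 2 that could be tested had groups that did not overlap, against 10 (4.41%) above and 5 (2.2%) below among all 227. The summed level of the 3 was 958 to 1115 CPM in sham rats and 973 to 1301 CPM in TBI rats.

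miR-190b-5p was at 33.0, 37.2, 32.5 and 44.4 CPM in Sham 1 to Sham 4. It was at 66.1, 116, 51.9 and 89.4 CPM in TBI 1 to TBI 4. Again every TBI rat was above every sham rat, and the log2 fold change of 1.22 (SE 0.26) was close to that of miR-146a-5p (edgeR QL, adjusted p = 0.0676). The annotation of GRCr8 places its gene within 10 kb of Tpm3, Cfap141 and Ns5atp4. miR-190a-5p, from another gene and with the same seed, was at 23.3 to 37.4 CPM in the sham rats and 30.4 to 38.0 CPM in the TBI rats, and its log2 fold change was 0.18 (SE 0.16).

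miR-155-5p, processed from the transcript Mir155hg and known as a promoter of inflammatory signalling, was the least abundant of the 5. It was at 6.93, 8.55, 10.5 and 5.42 CPM in the sham rats, from 21 to 73 counts. In the TBI rats it was at 17.5, 21.0, 11.1 and 31.1 CPM, from 53 to 198 counts. TBI 3 (11.1 CPM) lay just above Sham 3 (10.5 CPM), and scaled by total count alone the groups overlapped. The log2 fold change was 1.36 (SE 0.34, edgeR QL adjusted p = 0.158).

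miR-21-5p, abundant in many cells and raised in reactive astrocytes, was at 6011, 7431, 7699 and 6708 CPM in the sham rats and at 9060, 11234, 7705 and 11220 CPM in the TBI rats. TBI 3 was above Sham 3 by a margin of only a few CPM, and the other TBI rats were clear of the sham range. The margin depended on the scaling: by TMM over 56 libraries TBI 3 was at 7882 CPM, below Sham 3 at 7905 CPM and Sham 2 at 8277 CPM, and by the size factors of DESeq2 it was at 7720 CPM against 7750 CPM in Sham 3. The log2 fold change was 0.49 (SE 0.13), the smallest of the 5 (edgeR QL, adjusted p = 0.158).

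**Figure D2:**
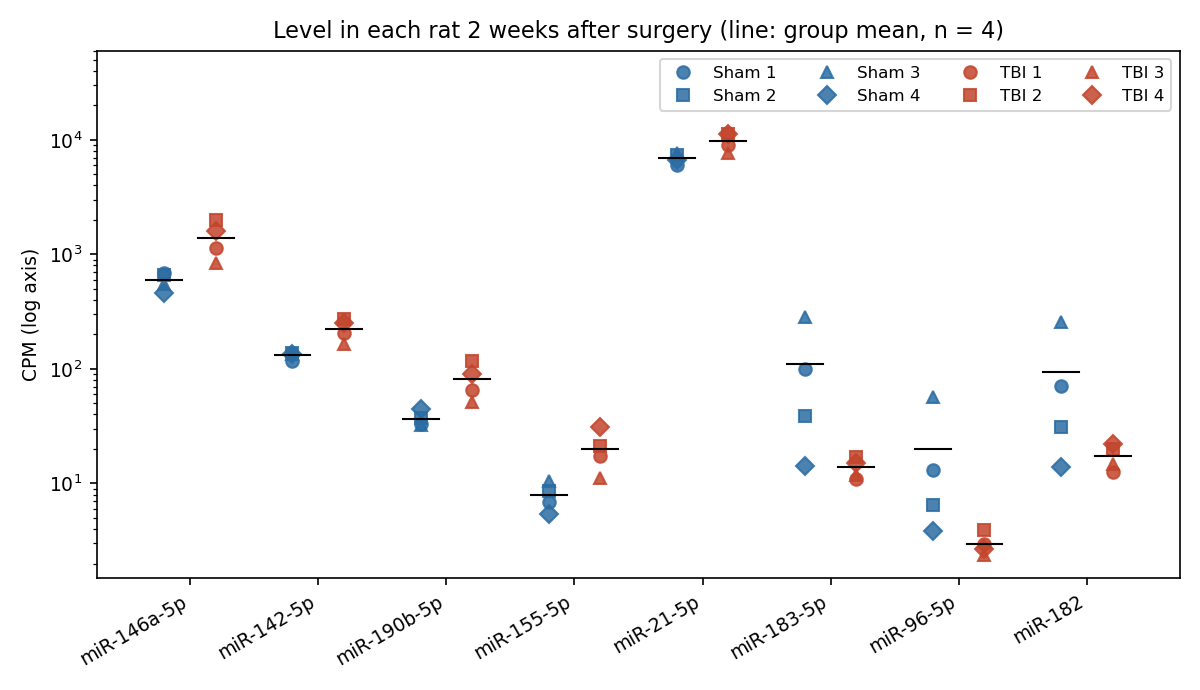
CPM (log axis) of the 8 miRNAs called in at least 1 of 4 tests in each sham rat (blue) and TBI rat (red) at 2 w, with 1 symbol per rat and a line at each group mean (n = 4). In this scaling the 5 miRNAs on the left have all TBI rats above all sham rats with TBI 3 (triangle) lowest, although miR-21-5p overlaps under 3 other scalings and miR-155-5p by total count, and in the 3 on the right Sham 3 and Sham 1 lie above the other rats while Sham 4 lies among or beside the TBI rats.

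The 4 TBI rats kept nearly the same order in these miRNAs. TBI 3 was the lowest TBI rat in all 5 and in 11 of the 14 miRNAs that were higher with an unadjusted p under 0.05, against 28.2% of all tested miRNAs. TBI 2 and TBI 4 were the upper pair in 12 of the 14, and the share of this pair over all tested miRNAs was not counted. A like order ran along component 1 of all tested miRNAs, with TBI 4 at 11.4, TBI 2 at 8.66, TBI 1 at -0.67 and TBI 3 at -4.83. The sham rats spread from -14.9 to 3.71 on that component. In units of the sham mean, TBI 3 was at 1.42 for miR-146a-5p, 1.26 for miR-142-5p, 1.11 for miR-21-5p, 1.41 for miR-190b-5p and 1.42 for miR-155-5p. The highest TBI rat was at 3.36 for miR-146a-5p, 2.10 for miR-142-5p, 1.61 for miR-21-5p, 3.16 for miR-190b-5p and 3.96 for miR-155-5p. Without TBI 3, edgeR's QL test called 7 miRNAs: the same 5, miR-17-5p, and miR-339-5p, which was outside the rule for naming and is given after its values were seen. Leaving out any other rat left the count at 0. TBI 2 and TBI 4 share the number 8 at the end of their library names and TBI 1 and TBI 3 the number 7. What this number stands for is not given in the sources used here, and its part in the order of the rats was not tested.

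The lower miRNAs were led by the sensory cluster. miR-183-5p was at 100, 39.0, 284 and 14.2 CPM in Sham 1 to Sham 4. In TBI 1 to TBI 4 it was at 10.9, 17.1, 11.9 and 15.2 CPM. The TBI rats were uniform, the sham rats spanned a wide range, and Sham 4 lay within the TBI range. The log2 fold change was -3.04 (SE 0.81, edgeR QL adjusted p = 0.158). miR-182 had the same shape, at 70.8, 31.2, 259 and 13.9 CPM in the sham rats and 12.6, 20.0, 14.9 and 22.1 CPM in the TBI rats. Its log2 fold change was -2.49 (SE 0.80). miR-96-5p was at 13.2, 6.54, 56.8 and 3.87 CPM in the sham rats and 2.98, 3.93, 2.38 and 2.67 CPM in the TBI rats, where it had only 9 to 36 counts. Its log2 fold change was -2.89 (SE 0.91).

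The 3 products moved together from rat to rat. Their summed level was 600 CPM in Sham 3, 184 CPM in Sham 1, 76.7 CPM in Sham 2 and 32.0 CPM in Sham 4, and 26.4 to 41.0 CPM in the TBI rats. The ratio of miR-183-5p to miR-182 was 1.02 to 1.41 in the sham rats and 0.69 to 0.87 in the TBI rats. At other intervals this ratio did not separate the groups. Scaled over all 56 libraries, sham replicate 4 at 3 months was at 49.3 CPM for miR-183-5p and 115 CPM for miR-182. TBI replicate 4 at 24 h was at 87.6 CPM for miR-183-5p and 69.7 CPM for miR-182. Without Sham 3 the log2 fold changes were -2.00 for miR-183-5p, -1.26 for miR-182 and -1.55 for miR-96-5p, all still below 0. Scaled over all 56 libraries, miR-183-5p was above 100 CPM in 2 of 4 sham rats and 0 of 4 TBI rats at 2 w, and in 1 of 24 sham rats and 2 of 24 TBI rats at the other intervals. The median of those other sham rats was 16.5 CPM, and the 2 w TBI rats were at 11.3 to 18.0 CPM on the same scale. High sham levels of the cluster were not confined to 2 w. On this scale miR-182 was at 14.5 to 266 CPM (median 53.8) in sham rats at 2 w. At 3 months it was at 26.9 to 204 CPM (median 120) in sham rats. Sham 1 and Sham 3 share the number 5 at the end of their library names and Sham 2 and Sham 4 the number 6, and its part in the cluster's level was not tested.

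A second tier of miRNAs was higher with an unadjusted p under 0.05 and was called by none of the 4 tests. miR-17-5p, a driver of proliferation, was at 137, 162, 171 and 179 CPM in the sham rats and at 217, 276, 166 and 271 CPM in the TBI rats, so that only TBI 3 fell within the sham range. Its log2 fold change was 0.54 (SE 0.17, edgeR QL adjusted p 0.215). miR-20a-5p, whose gene lies beside Mir17 and which has the same seed, was at 162, 191, 235 and 242 CPM in the sham rats and 278, 337, 210 and 393 CPM in the TBI rats. The pattern over the rats was that of miR-17-5p (log2 fold change 0.57, SE 0.20). Their sequences differ by 2 substitutions, and the division of reads that fit both is not known. The annotation also lists miR-17-5p under the gene Mir106a, beside Mir20b and Mir363, so its counts cannot be assigned to a single cluster. miR-15b-5p, of the cell-cycle family of miR-16, was at 22.4 to 28.9 CPM in sham rats and 25.7 to 34.8 CPM in TBI rats (log2 fold change 0.41, SE 0.14). With 1 surrogate variable in the fit, the log2 fold changes were 0.32 for miR-17-5p, 0.29 for miR-20a-5p and 0.27 for miR-15b-5p. The same fit lowered the called miRNAs too, to 0.61 for miR-142-5p, 0.91 for miR-190b-5p, 0.94 for miR-155-5p and 0.35 for miR-21-5p. The surrogate variable was at 0.50 in TBI 4, 0.36 in TBI 2, -0.06 in TBI 1 and -0.21 in TBI 3, and at -0.63 to 0.24 in the sham rats. It thus ran nearly in the order of the TBI rats in these miRNAs, so these drops cannot be read as the removal of unrelated variation. For miR-146a-5p the lowest value over the settings tried was 1.01, without TBI 2.

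miR-24-2-5p was at 489 to 528 CPM in sham rats and 564 to 677 CPM in TBI rats. The groups did not overlap and the log2 fold change was 0.25 (SE 0.08). miR-217-5p, best known from the pancreas and detected here at very low level, was at 1.29 to 3.16 CPM in sham rats (5 to 25 counts) and 3.81 to 6.28 CPM in TBI rats (12 to 41 counts). It too did not overlap (log2 fold change 0.79, SE 0.27). Outside the rule for naming, 3 more miRNAs whose groups did not overlap are given after their values were seen. miR-135a-5p was at 607 to 871 CPM in sham rats and 887 to 1118 CPM in TBI rats. miR-100-5p was at 10296 to 10784 CPM in sham rats and 11150 to 12307 CPM in TBI rats. miR-455-5p was at 263 to 291 CPM in sham rats and 294 to 354 CPM in TBI rats, so in all 3 the gap between the groups was small beside their level. miR-455-5p overlapped under the 3 other scalings, and miR-135a-5p and miR-100-5p by total count alone.

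The 5 lower miRNAs whose groups did not overlap differed by little or were rare. miR-3065-5p, whose gene overlaps that of the oligodendrocyte miRNA miR-338 and the host gene Aatk, was at 2.39, 2.77, 2.30 and 1.55 CPM in the sham rats and 1.32, 1.20, 1.43 and 1.41 CPM in the TBI rats. This rests on 4 to 19 counts per library and the log2 fold change was -0.77 (SE 0.22, edgeR QL adjusted p 0.182). miR-505-5p was at 6.47 to 9.81 CPM in sham rats and 4.14 to 5.87 CPM in TBI rats (log2 fold change -0.69, SE 0.20). miR-384-5p, which carries the seed of the miR-30 family, was at 1295 to 1410 CPM in sham rats and 1130 to 1292 CPM in TBI rats. Its log2 fold change of -0.18 (SE 0.07) was small, and TBI 3 nearly touched the sham range. miR-29b-5p was at 58.3 to 72.0 CPM in sham rats and 51.3 to 58.0 CPM in TBI rats (log2 fold change -0.28, SE 0.11). let-7e-5p, the fifth whose groups did not overlap, was named after its values were seen. It was at 2983 to 3236 CPM in sham rats and 2852 to 2973 CPM in TBI rats (log2 fold change -0.08, SE 0.06). let-7e-5p overlapped by total count and by the size factors of DESeq2, and miR-29b-5p by TMM over 56 libraries.

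The remaining 3 of the 10 lower miRNAs with the lowest p had overlapping groups. miR-770-5p, from the imprinted Meg3 locus, was at 52.6 to 88.8 CPM in sham rats and 36.2 to 63.3 CPM in TBI rats (log2 fold change -0.48, SE 0.24). miR-151-5p was at 148 to 190 CPM and 136 to 156 CPM in the same groups (-0.19, SE 0.10). miR-98-5p, of the let-7 family, was at 1134 to 1582 CPM and 956 to 1371 CPM (-0.24, SE 0.13). None of them had an unadjusted p under 0.05. Without Sham 1 the log2 fold changes were -0.27 for miR-770-5p and -0.16 for miR-98-5p, and without Sham 4 it was -0.12 for miR-151-5p. With 1 surrogate variable they were -0.18 for miR-770-5p and -0.12 for miR-98-5p.

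The lists of miRNAs by role give the wider picture, read against a median log2 fold change of 0.0015 over all 227. The lists were chosen with earlier results of these data known, so their counts describe the members and are no test of a role. Of 6 tested inflammation-responsive miRNAs, 5 had a log2 fold change above 0, with a median of 0.38, and 3 were called in at least 1 test (miR-155-5p, miR-146a-5p and miR-21-5p), against 8 (3.52%) of all 227. The other 3 did not pass any test. miR-27a-5p was at 11.6 to 20.3 CPM in sham rats and 17.9 to 24.5 CPM in TBI rats (log2 fold change 0.26, SE 0.18). miR-132-5p, which follows synaptic activity as well, was at 1844 to 2204 CPM and 1981 to 2221 CPM (0.02, SE 0.08).

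Markers of blood and choroid plexus overlapped between the groups. The red blood cell miRNAs, an index of blood left in the tissue, had log2 fold changes of 0.13 for miR-451-5p, -0.12 for miR-144-5p and -0.01 for miR-486. Their summed level was 214 to 288 CPM in sham rats and 200 to 303 CPM in TBI rats. miR-451-5p was lowest in TBI 1 (42.6 CPM) and highest in TBI 4 (122 CPM), with the sham rats at 59.1 to 90.1 CPM in between. The choroid plexus miRNAs, whose source lies beside the hippocampus, had log2 fold changes of -0.11 for miR-204-5p, 0.19 for miR-211-5p, -0.28 for miR-448-5p and 0.06 for miR-764-5p. Their sum was 1797 to 2480 CPM in sham rats and 1365 to 2597 CPM in TBI rats, with miR-204-5p lowest in TBI 2 (1305 CPM) and highest in TBI 4 (2525 CPM). All members of both lists were detected, and their part in the results above was not tested.

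Vessel wall miRNAs had 3 of 3 log2 fold changes above 0, with a median of 0.17 and none with an unadjusted p under 0.05. miR-143-5p was at 0.17, miR-145-5p at 0.17 and miR-126a-5p, of endothelium, at 0.09 on the log2 scale. Among oligodendrocyte miRNAs the median was -0.19, and beside miR-3065-5p the abundant miR-338-5p was at -0.19 (SE 0.14) and miR-219a-5p, which drives oligodendrocyte maturation, at 0.02 (SE 0.13). The 8 tested neuron-enriched miRNAs had a median of 0.03, 6 above 0 and 2 below, with none at an unadjusted p under 0.05. Their summed level, most of it miR-9a-5p, was 245541 to 286343 CPM in sham rats and 225774 to 288483 CPM in TBI rats. They ranged from the abundant miR-9a-5p and miR-218a-5p to miR-9b-5p, at a mean of 3.60 CPM in sham and 4.30 CPM in TBI rats. The activity-regulated list had a median of -0.03, and miR-212-5p, the partner of miR-132, was at -0.17 (SE 0.16).

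Clusters and seed families differed in how evenly their members lay. In the miR-17-92 cluster and its paralogues 6 of 7 tested members were above 0, with a median of 0.22. miR-18a-5p was at 0.41 (SE 0.19), miR-106b-5p at 0.22 (0.12) and miR-93-5p at 0.21 (0.14), and 2 members had an unadjusted p under 0.05, against 9.25% of all 227. The miR-15, miR-16 and miR-497 family had 6 of 6 above 0, with a median of 0.11 and 1 member, miR-15b-5p, at an unadjusted p under 0.05, against the same 9.25%. In the miR-23, miR-27 and miR-24 list 2 of 5 were above 0, with a median of -0.0022, and miR-24-1-5p, with the seed of miR-24-2-5p, was at -0.04 (SE 0.10).

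Of the p53-linked miRNAs, miR-34a-5p was at 127 to 209 CPM in sham rats and 139 to 260 CPM in TBI rats (log2 fold change 0.41, SE 0.22). miR-449a-5p, of ciliated epithelium, was at 45.2 CPM in TBI 4 and at 6.61 to 11.6 CPM in the other 7 rats, and its log2 fold change was 0.92 (SE 0.62). The let-7 family had 8 of 9 members below 0, with a median of -0.08, the lowest being let-7d-5p at -0.31 (SE 0.18), and none had an unadjusted p under 0.05. The miR-30 family had a median of 0.03 and the miR-181 family of 0.0023, both within 0.15 of 0 in every member. In the imprinted Dlk1-Dio3 cluster, the largest list with 38 tested miRNAs, 29 were below 0 and 9 above, with a median of -0.05. None of these 38 had an unadjusted p under 0.05, and their range was -0.48 to 0.25.

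**Figure D3:**
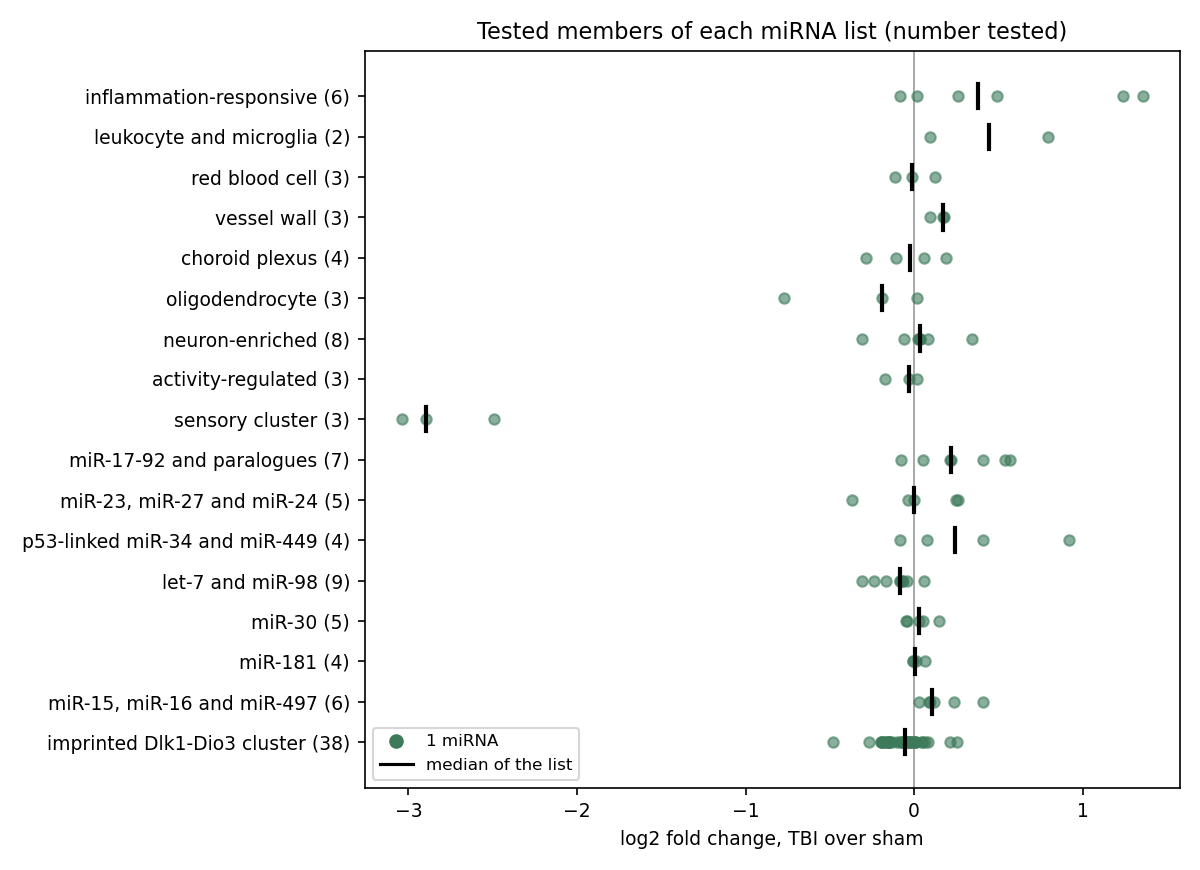
log2 fold change of TBI over sham at 2 w (horizontal axis) for each tested member (points) of 17 miRNA lists (rows, with the number tested), with a black line at each median. The sensory cluster lies below -2, the inflammation-responsive list reaches 1.36 with miR-155-5p, and the medians of all lists but the sensory cluster lie between -0.19 and 0.44, with members up to 0.57 in the miR-17-92 list and 0.92 in the p53-linked list.

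The abundant miRNAs, which set most of the library, overlapped between the groups. The 5 most abundant held 53.9% of CPM. Their log2 fold changes were 0.02 for miR-9a-5p, -0.13 for miR-26a-5p, 0.10 for miR-99a-5p, 0.05 for miR-7a-5p and -0.06 for miR-218a-5p, with SE of 0.06 to 0.12, and all of their groups overlapped. The sign for miR-9a-5p and for miR-7a-5p changed with the rats in the fit. The coefficient of variation of a miRNA between rats had a median of 12.1% in sham and 12.8% in TBI.

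Whether the injury effect at 2 w differed from that at other intervals was tested in a joint fit of all 56 libraries with the same test. Here a value is a log2 fold change at 2 w minus that at the other interval, each against its own sham rats. Against 24 h, 2 of 244 miRNAs (0.82%) differed. miR-21-5p was one, with an effect of 0.48 (SE 0.19) at 2 w and 1.71 (0.20) at 24 h, a difference of -1.23 (SE 0.27, adjusted p = 0.00492). Scaled over all 56 libraries, its TBI rats were at 15181 to 21241 CPM at 24 h and 7882 to 11822 CPM at 2 w, and its sham rats at 4661 to 7540 CPM and 6183 to 8277 CPM.

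miR-223-5p was the other, with a difference of -4.30 (SE 0.93, adjusted p = 0.00492), a fitted value from few counts that is no bound. Its TBI rats were at 0.27 to 8.17 CPM at 24 h and 0.49 to 1.36 CPM at 2 w, and its sham rats did not exceed 1.48 CPM at either interval. The call was lost without Sham 3 (difference -3.48, adjusted p = 0.441, edgeR QL). For miR-155-5p the effect was 1.35 (SE 0.31) at 2 w and 2.72 (0.31) at 24 h, a difference of -1.38 (SE 0.43) with an adjusted p of 0.201 in the same test. For miR-146a-5p it was larger at 2 w than at 24 h by 0.79 (SE 0.29, adjusted p = 0.390).

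Against 1 month, 0 of 244 (0.0%) differed by edgeR's QL test or by the likelihood ratio and Wald tests tried, while 41 had an unadjusted p under 0.05. The effects at 1 month were 1.36 for miR-146a-5p, 1.15 for miR-155-5p, 0.52 for miR-142-5p, 0.12 for miR-21-5p and 0.17 for miR-190b-5p. The differences, 2 w minus 1 month, were -0.14 (SE 0.29) for miR-146a-5p, 0.19 (0.43) for miR-155-5p, 0.23 (0.21) for miR-142-5p and 0.35 (0.27) for miR-21-5p. For miR-190b-5p the difference was 0.96 (SE 0.32), and its adjusted p of 0.149 (edgeR QL) did not pass. Without TBI 3, 4 miRNAs differed from 1 month: miR-190b-5p, and miR-449a-5p, miR-139-5p and miR-216b-5p, which were named after their values were seen.

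Against the mean of the other 6 intervals, 1 of 244 miRNAs (0.41%) differed, miR-190b-5p. Its injury effect was 1.13 (SE 0.23) at 2 w and 0.01 to 0.28 at the other 6 intervals, a difference of 0.99 (SE 0.24, adjusted p = 0.0464, edgeR QL). Scaled over all 56 libraries, its level was 53.1, 68.2, 94.2 and 122 CPM in the TBI rats at 2 w, from lowest to highest. Of the 48 libraries at other intervals, 7 were above the lowest of these and 0 above the second, and the sham rats at 2 w lay at 33.4 to 46.2 CPM. The difference was 0.79 to 1.16 when each 2 w rat was left out, and it passed the threshold in 3 of those 8 fits. The Wald test of DESeq2 called miR-190b-5p and miR-183-5p in this comparison. In the edgeR QL test the sensory cluster did not pass: miR-183-5p differed by -3.46 (SE 1.04, adjusted p = 0.148), miR-96-5p by -3.17 (0.96, adjusted p = 0.148) and miR-182 by -2.71 (0.90, adjusted p = 0.201), all by the same edgeR test.

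**Figure D4:**
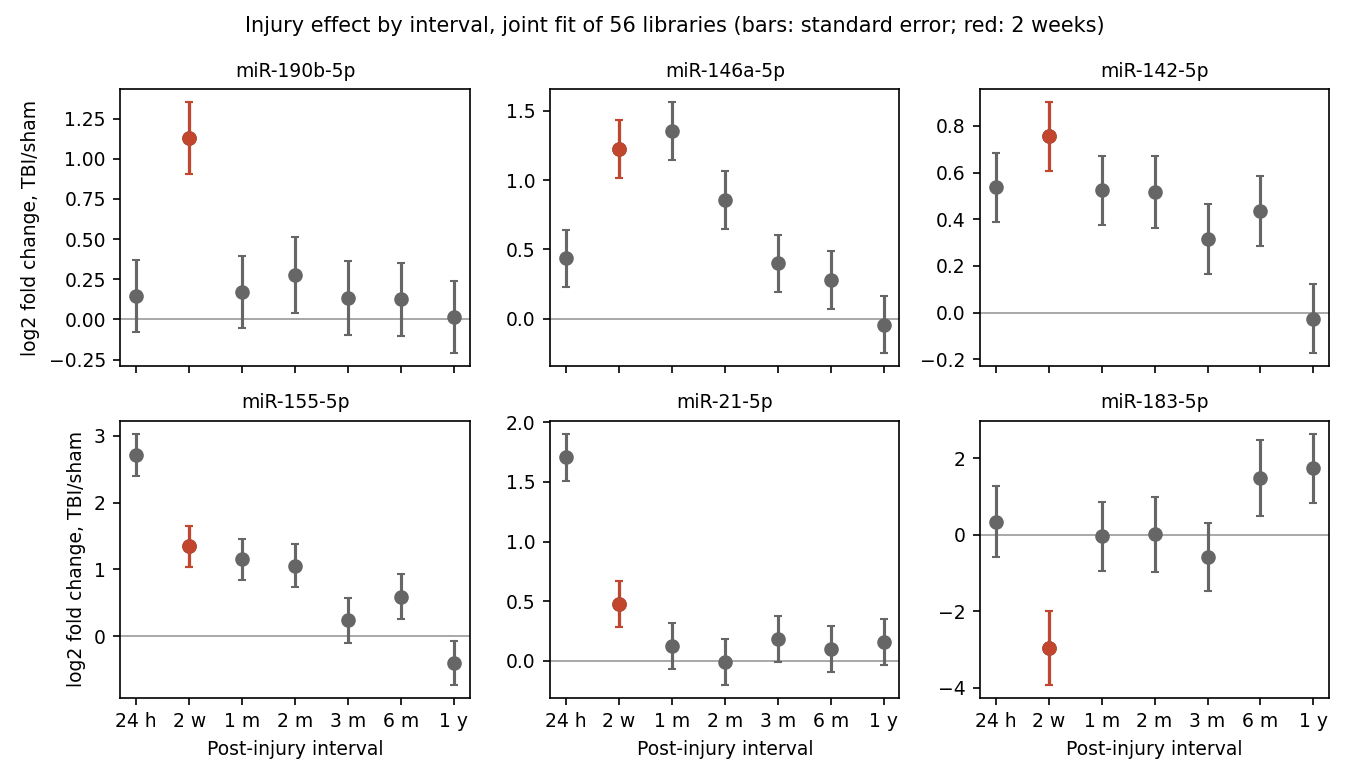
Injury effect (log2 fold change of TBI over the sham rats of the same interval, with standard error bars) at the 7 post-injury intervals for 6 miRNAs in the joint fit of 56 libraries, with 2 w in red and a separate vertical scale in each panel. miR-190b-5p and miR-183-5p have their largest deviation from 0 at 2 w, while miR-155-5p and miR-21-5p are highest at 24 h and miR-146a-5p is similar at 2 w and 1 month.

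**Figure D5:**
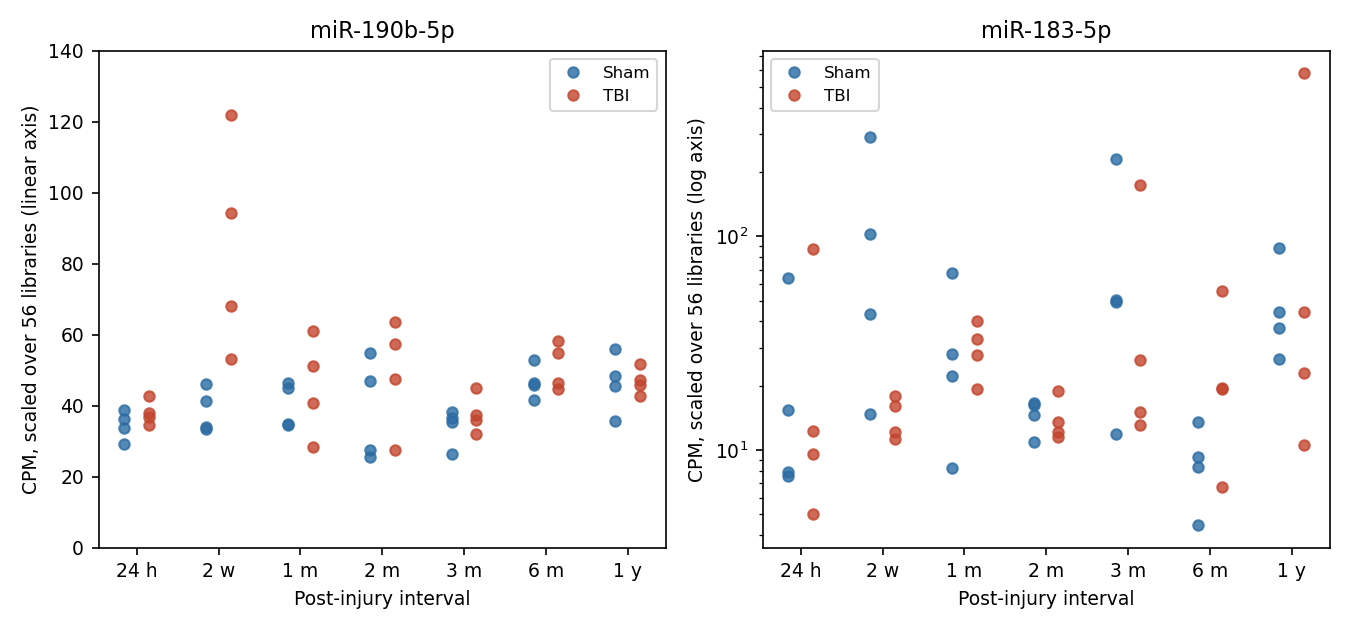
CPM in each rat, scaled over 56 libraries, for miR-190b-5p (left, linear axis) and miR-183-5p (right, log axis) in sham (blue) and TBI (red) rats at each interval. For miR-190b-5p, 3 TBI rats at 2 w lie above every library of the other intervals, and for miR-183-5p single high rats occur in both groups.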

How the data were processed

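Small RNA libraries from rat hippocampus were counted by the authors with miRDeep2 against miRBase (base calls with bcl2fastq 2.20.0.422 per the labels), and the deposited values are raw read counts per mature miRNA, 309 of 367 named as 5p arms. How reads fitting several miRNAs were divided is not given in the sources used here. The 8 libraries of 2 w were grouped by their labels. In R 4.3.3, edgeR 4.0.16 was used for filterByExpr, TMM scaling and the quasi-likelihood test, adjusted by Benjamini-Hochberg (threshold 0.05), with standard errors from the F statistic. The likelihood ratio test of edgeR and both tests of DESeq2 1.42.0 were run after the same filter. Exact permutation tests used log2 CPM (prior count 2). Intervals were compared in a joint fit of 56 libraries. Alternatives were other scalings, filters, an older fit, 1 surrogate variable (sva 3.50.0) and each rat left out. Leaving out rats in the likelihood ratio and Wald tests, and the overlap of groups under other scalings, were added after seeing the data. The steps were tested on simulated data. Gene neighbours are from GRCr8, with no coordinates since the counts name no build. Beyond the sample names, nothing in the labels says that the libraries are separate animals. The authors report 56 rats in all, with 4 TBI and 4 sham hippocampi at each interval. The p-values measure the spread between these libraries. Same-group libraries differed by more than sampling noise (lowest chi-square per degree of freedom 81.3).

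The miRNAs named were those called by any of the 4 tests, the 10 higher and 10 lower with the lowest quasi-likelihood p, the 5 most abundant, list members in order of p, and those differing between intervals. The members and lists were chosen with earlier results of these data known. Python 3.11.15 with matplotlib 3.10.9 and pandas 2.3.3 made the plots and tables.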

Additional observations from a re-analysis of the deposited data

Results flagged for a closer look

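The miRNAs checked were those called, those ranked by p, the most abundant, and members of the blood, choroid plexus and inflammation lists. Of their 72 groups of 4 rats, 3 had an outlying rat. About 1 in 20, or 3.6, would be found by chance. Other miRNAs given above were not checked, among them miR-449a-5p, which was high in TBI 4 alone. miR-7a-5p, a miRNA abundant in brain, was at 73208 CPM in TBI 3 and 49309 to 51887 CPM in the other TBI rats. miR-218a-5p, a neuronal miRNA, was at 43634 CPM in TBI 3 and 36377 to 36807 CPM in the others. miR-448-5p, of the choroid plexus list, was at 2.82 CPM in TBI 4 (18 counts) and 6.28 to 6.67 CPM in the others. TBI 3 is also the TBI rat with the lowest level of the 5 higher miRNAs.

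For 3 miRNAs the injury effect differed between intervals by a test of the difference itself (edgeR quasi-likelihood over 244 miRNAs). miR-21-5p had a smaller effect at 2 w than at 24 h (difference -1.23, adjusted p = 0.00492), and the call held in all 12 alternative settings tried, from -1.34 to -1.16. miR-223-5p likewise differed from 24 h (-4.30, adjusted p = 0.00492), in 11 of 12 settings. miR-190b-5p had a larger effect at 2 w than the mean of the other 6 intervals (0.99, adjusted p = 0.0464), in 8 of 13 settings.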

How the results depend on the processing

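The count of 0 miRNAs by edgeR's quasi-likelihood test (21 at an unadjusted p under 0.05) became 8 with the likelihood ratio test of edgeR, 7 with the Wald test of DESeq2, 6 with its likelihood ratio test and 4 in the joint fit of 56 libraries, and 0 to 7 with each rat left out (7 without TBI 3). It was 0 under the other scalings, filters, the older fit and 1 surrogate variable. With each rat left out, the likelihood ratio test of edgeR gave 5 (without TBI 4) to 9 and the Wald test 3 (without TBI 4), 4 (without Sham 1 or TBI 2) to 9. The difference from 24 h held for 1 (without Sham 3) to 3 miRNAs, that from 1 month for 0 to 4 (4 without TBI 3), and that from the mean of the other 6 intervals for 2 with the Wald test (miR-190b-5p and miR-183-5p), and for 0 (without Sham 1, Sham 2, Sham 3, TBI 2 or TBI 4) to 2 (without TBI 3). The 10 miRNAs with every TBI rat above every sham rat became 7 to 8 under 3 other scalings, and the 5 below became 12 by total count alone and 4 under the other 2. The sign reversed for miR-9a-5p (-0.025 to 0.092) and miR-7a-5p (-0.097 to 0.11) with each rat left out. Of 445 values for 25 miRNAs, 409 kept their direction and side of the threshold, 31 passed it and 5 reversed. The cause was not tested. Depth limits miR-155-5p, miR-96-5p, miR-217-5p and miR-3065-5p, and miR-223-5p could not be tested at 2 w alone. No paired analysis was possible because the TBI and sham libraries at 2 w share no number in their names.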
